A study of Rattus norvegicus with 4 samples.

Results

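The transcripts described here encode the regulators that set how much a heart muscle cell invests in mitochondria and in burning fat: the PGC-1 coactivators (Ppargc1a, Ppargc1b), the estrogen-related receptors or ERRs (Esrra, Esrrb, Esrrg), the peroxisome proliferator-activated receptors or PPARs (Ppara, Ppard, Pparg), nuclear respiratory factor 1 (Nrf1) and the mitochondrial transcription factor Tfam. They were chosen by name, and all 10 were found once among the 15731 genes of the deposited RPKM values. RPKM is the number of reads on a gene scaled to its length and to the size of the library, so that levels of different genes can be compared. The cells were ventricular cardiomyocytes isolated from 1-day-old wild type Wistar rats and transfected with a synthetic mimic of hsa-miR-25-3p, hsa-miR-93-5p or hsa-miR-106b-5p, or with cel-miR-67, a worm miRNA that served as control. RNA was harvested 72 h after transfection and 1 library was sequenced for each of the 4 mimics. With 1 library for each mimic there is no replicate check and no test, so the values describe these 4 libraries. The labels do not say whether the libraries came from separate cultures. They give the mimic dose as 25 nM in one protocol and as 25 mM in another.

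PGC-1 proteins do not bind DNA themselves. They dock on nuclear receptors and on other factors, including the ERRs, the PPARs and NRF1, and raise the transcription of genes for fatty acid oxidation, the citric acid cycle and the respiratory chain. NRF1 acts on nuclear genes of mitochondria, and Tfam packages and transcribes the mitochondrial DNA. In the heart this network is known for the switch after birth from glucose to fatty acids as the main fuel.

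The mature rat miRNAs of the same names are shown from RefSeq (GRCr8), because the seed, bases 2 to 8 in capitals, largely decides which transcripts a miRNA pairs with. The sequences of the human and worm mimics themselves were not analysed here.
rno-miR-106b-5p: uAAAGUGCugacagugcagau
rno-miR-93-5p: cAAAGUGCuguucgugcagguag
rno-miR-25-3p: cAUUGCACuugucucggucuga
miR-106b and miR-93 share 1 seed and miR-25 has another. All 3 lie on the minus strand of chromosome 12 within Mcm7, at chr12:22157103-22157123 for miR-106b, chr12:22156894-22156916 for miR-93 and chr12:22156652-22156673 for miR-25. The comparisons made were therefore of each mimic with cel-miR-67, of the pair with 1 seed, and of miR-25 with miR-106b.

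Whole reads were recovered from the RPKM values of all 15731 genes. Reads on listed genes ranged from 15175309 with cel-miR-67 to 18797375 after miR-106b, and held 60.4% to 66.9% of the library sizes behind the RPKM values. The 10 regulators had between 16 and 1274 reads in a library. Intervals in brackets are 95% exact intervals from these reads, and cover counting error only. All 9 cardiomyocyte markers analysed were at 15.9 RPKM or more in every library, with Actc1 (cardiac actin) the highest of them in the control at 7073 RPKM. Fibroblast markers were also present, led by Col3a1 at 326.5 RPKM in the control library. Of the genes listed for smooth muscle, Des was highest there at 640.9 RPKM. Which cells the Des reads came from cannot be told in bulk RNA, so they are not read as showing smooth muscle cells. Summed cardiomyocyte markers were at 0.597 of their control level after miR-25, and smooth muscle markers, Des included, at 2.10 times theirs. The part of this in the results was not tested, and fewer cells of a type and less RNA per cell cannot be told apart in bulk RNA. Overlapping protein-coding genes are annotated in GRCr8 for Ppara (Cdpf1) and Esrra (Trmt112), a pseudogene for Ppargc1a, miRNAs for Ppargc1b and long noncoding RNAs for Ppard and Esrrg, and the sources used here do not give whether reads were counted by strand.

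In the control library the regulators covered a wide range of levels. Tfam was highest at 26.0 RPKM (24.3 to 27.7), followed by Esrra at 17.4 (16.3 to 18.5). Esrrg at 6.56, Ppargc1b at 6.52 and Ppargc1a at 6.27 came next, and their intervals overlapped. Nrf1 at 3.71 and Ppara at 2.59 (2.19 to 3.04) followed, then Esrrb at 1.52 (1.11 to 2.04) and Ppard at 0.990 (0.847 to 1.15), whose intervals overlapped. Pparg was lowest at 0.308 RPKM from 16 reads. In rank, Tfam stood above 86.7% of all listed genes in the control and Pparg above 16.1%.

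**Figure D1:**
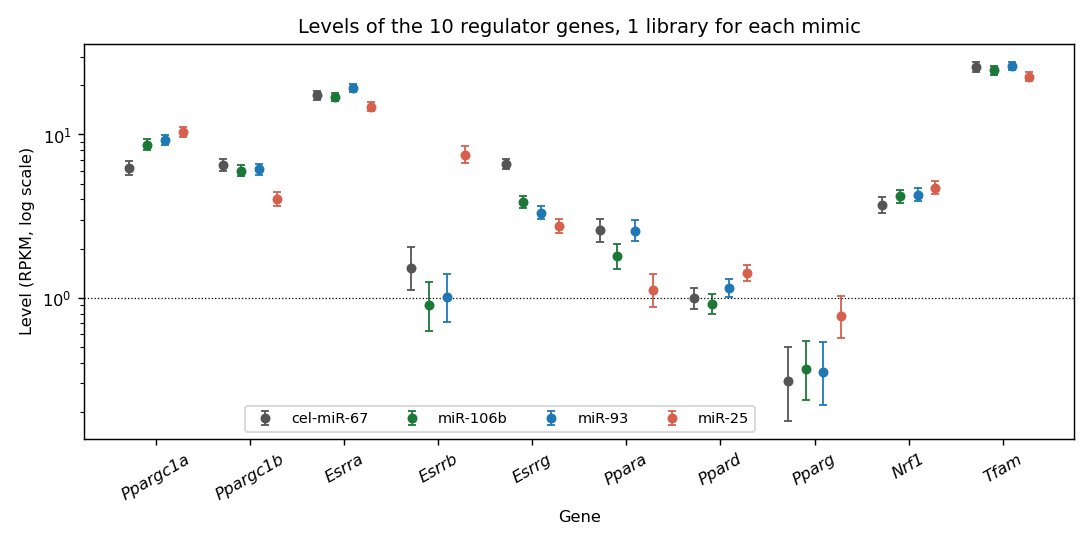
Levels (RPKM, log axis) of the 10 genes in the 4 libraries, with points for 1 library each and bars for the 95% exact Poisson interval of its reads; the dotted line marks 1 RPKM. Esrrb stands at 7.52 RPKM after miR-25 against 1.52 in the control, while Esrrg is highest in the control at 6.56.

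Genes were counted as higher or lower when they were past 1.3-fold and above 1.0 RPKM in both libraries. Of the regulators, 7 passed this level after miR-106b, and 1 was higher and 2 were lower, where 11.9% of all 11296 genes tested were higher and 12.7% lower. After miR-93, 8 passed, 1 was higher and 2 were lower, against 15.1% and 15.6% of 11280 genes. After miR-25, 8 passed, 2 were higher and 3 were lower, against 19.3% and 22.6% of 11198 genes. With so few members these counts by themselves are not read as particular to the regulators. Ppard, at 0.990 RPKM in the control, and Pparg did not pass in any of these comparisons, and Esrrb did not pass after miR-106b. The median log2 ratio of the members that passed was -0.07 after miR-106b, 0.00 after miR-93 and -0.21 after miR-25, beside -0.00, -0.00 and -0.01 over all genes tested. Ratios scaled to the reads on listed genes instead of the library size are higher by 0.08, 0.15 and 0.15 on the log2 scale. They turn the 1339 higher and 1437 lower genes after miR-106b into 1882 and 1026, the 1707 and 1762 after miR-93 into 2836 and 1089, and the 2166 and 2532 after miR-25 into 3284 and 1782. All 3 comparisons use the same control library.

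Ppargc1a (ENSRNOG00000004473), which encodes the coactivator PGC-1α, was lowest in the control library and higher with each mimic. Its level was 6.27 RPKM with cel-miR-67, 8.67 after miR-106b, 9.26 after miR-93 and 10.4 after miR-25, from 389, 706, 692 and 777 reads. These are ratios of 1.38, 1.48 and 1.66 to the control, or log2 ratios of 0.47 (0.29 to 0.65), 0.56 (0.38 to 0.75) and 0.73 (0.56 to 0.91). The interval of the control level, 5.66 to 6.92 RPKM, did not reach those of the 3 mimic libraries, which began at 8.04, 8.58 and 9.70. The control was thus the low library. At a ratio of 1.5 only the value after miR-25 would be counted.

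Its relative Ppargc1b (ENSRNOG00000017503), the gene of PGC-1β, went the other way after miR-25. The level was 6.52 RPKM in the control, 5.99 after miR-106b, 6.10 after miR-93 and 4.03 after miR-25. After miR-25 the log2 ratio was -0.69 (-0.89 to -0.50), a level 1.62-fold lower. After miR-106b it was -0.12 (-0.29 to 0.05) and after miR-93 -0.10 (-0.27 to 0.08), so no difference was detectable at this depth. The ratio of Ppargc1a to Ppargc1b was 0.961 in the control, 1.45 after miR-106b, 1.52 after miR-93 and 2.58 after miR-25. The summed level of both was between 12.8 RPKM in the control and 15.4 after miR-93. Another member of the family, Pprc1, which stood in the list of partners, was at 3.44 RPKM in the control and 2.15 after miR-25 (log2 ratio -0.68, -0.89 to -0.46).

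Among the ERRs, orphan receptors that bind the genes of oxidative metabolism without a known natural hormone, Esrra (ENSRNOG00000021139) was the most abundant in every library. Its level was 17.4 RPKM in the control, 17.1 after miR-106b, 19.3 after miR-93 and 14.8 after miR-25. The log2 ratios were -0.02, 0.15 and -0.23 (-0.36 to -0.10), all within 1.3-fold. The libraries of miR-93 and miR-25 thus marked the top and the bottom of its range.

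Esrrb (ENSRNOG00000010259) gave the largest value of the set. This ERR is best known from embryonic stem cells. It was at 1.52 RPKM in the control, 0.904 after miR-106b, 1.01 after miR-93 and 7.52 after miR-25, from 45, 35, 36 and 267 reads. The level after miR-25 was 4.94-fold that of the control, a log2 ratio of 2.30 (1.84 to 2.79). From the top, it ranked 4 among 11198 genes tested after miR-25. After miR-93 the log2 ratio was -0.59, past the cutoff, but its interval of -1.26 to 0.07 includes 0. After miR-106b it was -0.75 (-1.43 to -0.08), where the mimic library was below 1.0 RPKM. So the library of miR-25 was high and the other 3 were low, and the direct log2 ratio of miR-25 over miR-106b, in which the control is not used, was 3.06 (2.55 to 3.61). With a pseudocount of 1 RPKM the log2 ratio of miR-25 to the control was 1.76. At a level cutoff of 2.0 RPKM in both libraries, which the authors' methods state, Esrrb would not be called against the control, which is below it. The gene model behind the Esrrb values is 1302 bases long, the shortest of the 10, so that 1 read was worth 0.0339 RPKM in the control library. No other gene overlaps Esrrb in the annotation of GRCr8.

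Esrrg (ENSRNOG00000002593), the ERR known for driving the oxidative program of the perinatal heart, was lower with every mimic. It stood at 6.56 RPKM in the control, 3.86 after miR-106b, 3.32 after miR-93 and 2.74 after miR-25, from 793, 612, 484 and 398 reads. The levels were 1.70-fold, 1.97-fold and 2.39-fold lower than in the control. The log2 ratios were -0.77 (-0.92 to -0.61), -0.98 (-1.15 to -0.82) and -1.26 (-1.44 to -1.08). From the bottom, Esrrg ranked 326 of 11296, 308 of 11280 and 313 of 11198 genes tested. The control library was highest, and that of miR-25 lowest.

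Summed over Esrrb, Esrrg and Esrra the level varied less than its makeup. The sum was 25.4 RPKM in the control, 21.8 after miR-106b, 23.6 after miR-93 and 25.1 after miR-25. Esrrb made up 5.99% of it in the control, 4.14% after miR-106b, 4.29% after miR-93 and 30.0% after miR-25. Esrrg made up 25.8%, 17.7%, 14.1% and 10.9% in the same order, and Esrra 68.2%, 78.2%, 81.6% and 59.1%. After miR-25, then, Esrrb outnumbered Esrrg per length, whereas in the other 3 libraries Esrrg was the more abundant of the pair.

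**Figure D2:**
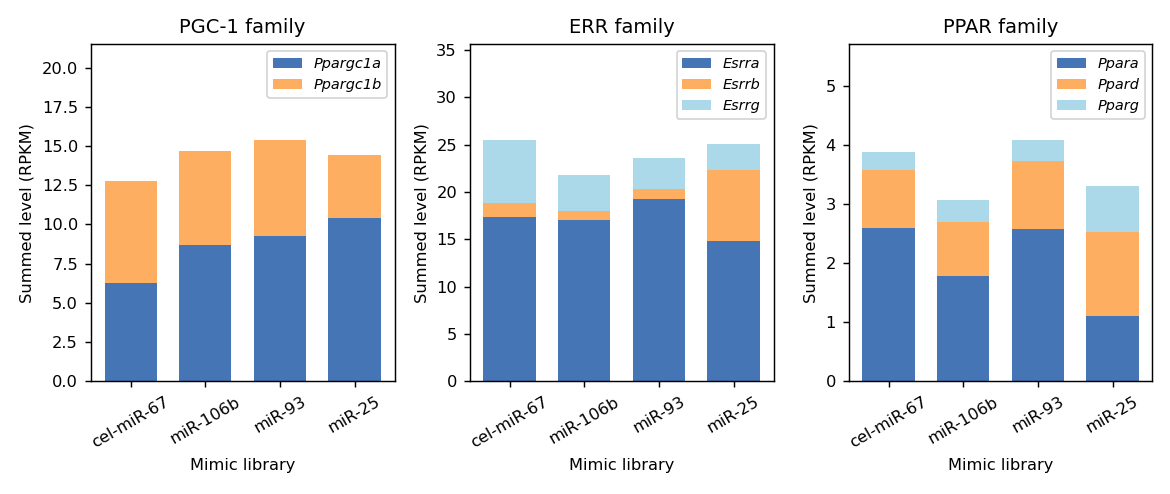
Summed RPKM of the PGC-1, ERR and PPAR genes in each of the 4 libraries, with 1 stacked bar for each library and 1 color for each gene. The ERR sum is 25.4 RPKM in the control and 25.1 after miR-25, but Esrrb is 5.99% of it in the former and 30.0% in the latter.

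The PPARs, receptors for fatty acids that pair with RXR to act on DNA, were scarce. Ppara (ENSRNOG00000021463), which drives fatty acid oxidation in heart and liver, was at 2.59 RPKM in the control, 1.79 after miR-106b, 2.58 after miR-93 and 1.11 after miR-25, from 151, 137, 181 and 78 reads. The log2 ratio was -0.53 (-0.88 to -0.19) after miR-106b and -1.22 (-1.63 to -0.81) after miR-25. After miR-93 it was -0.01 (-0.33 to 0.31). Ppara was thus at its control level in the miR-93 library and was lowest in that of miR-25, and a level cutoff of 2.0 RPKM would drop it after miR-106b and after miR-25. The call after miR-106b is also lost at 1.5-fold and with a pseudocount of 1 RPKM.

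Ppard (ENSRNOG00000000503), a PPAR present in most tissues, was highest where Ppara was lowest. It was at 0.990 RPKM in the control, 0.914 after miR-106b, 1.15 after miR-93 and 1.42 after miR-25. Its log2 ratio after miR-25 was 0.52 (0.24 to 0.80), and those after miR-106b and miR-93 were -0.11 and 0.22, with intervals that include 0. Pparg (ENSRNOG00000008839), known as the regulator of fat cells and also used by macrophages and endothelium, was at 0.308 RPKM in the control, 0.366 after miR-106b, 0.351 after miR-93 and 0.768 after miR-25, from 16, 25, 22 and 48 reads. The log2 ratio after miR-25 was 1.32 (0.48 to 2.24), and 0.44 with a pseudocount of 1 RPKM. In the libraries of miR-106b and miR-93 no difference in Pparg from the control was detectable at this depth. As a share of the summed PPAR level, Ppara made up 66.6% in the control and 33.7% after miR-25. The sum itself was 3.89 RPKM in the control, 3.07 after miR-106b, 4.08 after miR-93 and 3.30 after miR-25.

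Summed macrophage and endothelial markers, of cells that also use Pparg, were lower after miR-25 than in the control. Smooth muscle markers, Des included, summed to 2.10 times their control level there. Of all genes tested after miR-25, 22.6% were lower. The part of any of these cells in the Pparg values was not tested. Macrophage markers summed to 20.6 RPKM in the control, 17.5 after miR-106b, 20.7 after miR-93 and 14.0 after miR-25, with none of 8 at 0 and 3 of the 5 tested lower after miR-25. Endothelial markers summed to 11.5 RPKM in the control and 8.10 after miR-25, with none of 7 at 0 and 3 of 4 tested lower after miR-25. The remaining one, Kdr, a receptor for VEGF that was named after its values were seen, was at 1.26 RPKM in the control and 2.29 after miR-25 (log2 ratio 0.86, 0.63 to 1.10). Of the adipocyte markers 1 was analysed here, Cfd, which was below 0.5 RPKM in every library and listed at 0 after miR-25.

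Nrf1 (ENSRNOG00000008752), not to be confused with Nfe2l2 (the factor NRF2), was at 3.71 RPKM in the control, 4.19 after miR-106b, 4.28 after miR-93 and 4.72 after miR-25. The log2 ratios were 0.18 (-0.03 to 0.39), 0.21 (-0.00 to 0.42) and 0.35 (0.14 to 0.56), all within 1.3-fold. Scaled to the reads on listed genes, the ratio after miR-25 would pass the cutoff. Tfam (ENSRNOG00000000613) was at 26.0 RPKM in the control, 24.7 after miR-106b, 26.2 after miR-93 and 22.6 after miR-25. Its log2 ratios were -0.07 (-0.20 to 0.06), 0.01 (-0.12 to 0.14) and -0.20 (-0.33 to -0.07). Tfam kept the highest level of the 10 in every library.

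**Figure D3:**
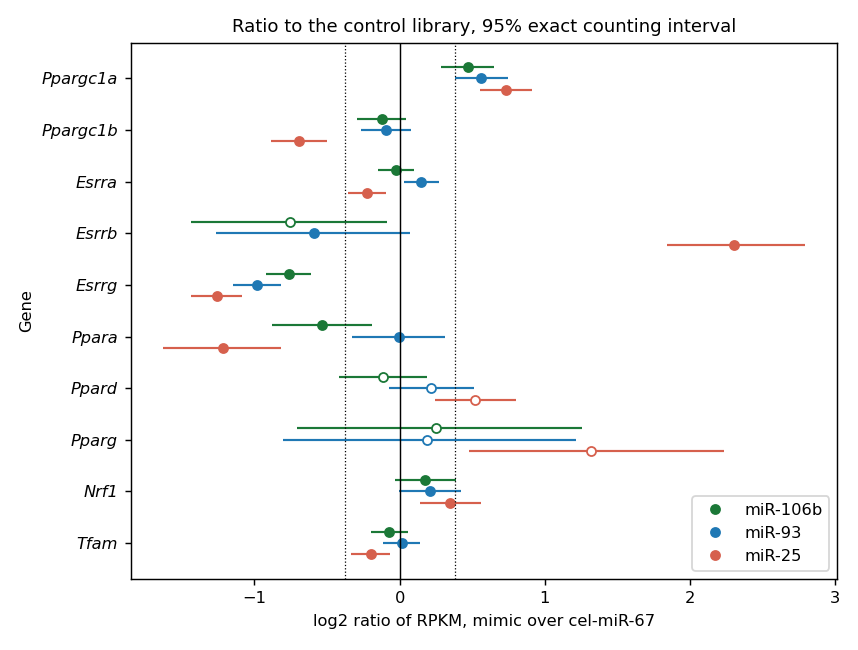
Log2 ratio of RPKM, mimic over cel-miR-67, for each of the 10 genes, with lines for 95% exact intervals of counting error and dotted lines at 1.3-fold; open points mark genes at or below 1.0 RPKM in either library. Esrrg lies left of the dotted line with all 3 mimics and Ppargc1a right of it, and Esrrb reaches 2.30 after miR-25.

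Between the mimics that share a seed 1 regulator passed the fold cutoff. In the direct comparison of miR-93 with miR-106b, 7 passed the level cutoff, 1 was higher and 0 were lower, beside 7.3% higher and 8.21% lower of 11391 genes tested. That gene was Ppara, at a log2 ratio of 0.52 (0.20 to 0.86). A cutoff of 1.5-fold left no member called. Esrrg at -0.22 (-0.39 to -0.04) and Esrra at 0.17 (0.06 to 0.29) differed beyond counting error but within 1.3-fold. For Ppargc1a the difference was 0.09 (-0.06 to 0.25), for Ppargc1b 0.03 (-0.14 to 0.19), for Nrf1 0.03 (-0.16 to 0.22) and for Tfam 0.09 (-0.04 to 0.21).

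Between mimics with different seeds 3 regulators passed it. Comparing miR-25 with miR-106b, 7 passed, 0 were higher and 3 were lower, beside 22.1% and 23.0% of 11183 genes tested. Ppara was lower by a log2 ratio of -0.69 (-1.11 to -0.27), Ppargc1b by -0.57 (-0.76 to -0.39) and Esrrg by -0.49 (-0.68 to -0.31). Esrrb, Ppard and Pparg were higher after miR-25 but did not pass the level cutoff in the miR-106b library. For these the log2 ratios were 3.06, 0.63 (0.37 to 0.90) and 1.07 (0.34 to 1.83). Ppargc1a was at 0.26 (0.12 to 0.41), Nrf1 at 0.17 (-0.01 to 0.36) and Tfam at -0.13 (-0.25 to -0.00).

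Genes that ERRs and PGC-1 are known to act on were lower after miR-25 and near the control with the other mimics. Of 22 tested after miR-25, 16 were lower and 0 higher, beside 22.6% and 19.3% over all genes. The median log2 ratio of these 22 was -0.64, beside -0.01 over all genes. The lowest of those tested were Cox5b, a subunit of cytochrome c oxidase, at -1.30 (-1.38 to -1.21), and Gpd1, the glycerol phosphate dehydrogenase of the cytosol, at -1.27 (-1.55 to -0.99). Cox5b stood at 303.4 RPKM in the control, 362.6 after miR-106b, 247.3 after miR-93 and 123.6 after miR-25. After miR-106b 1 of 23 was lower and 0 higher, at a median of -0.06, beside 12.7% and 11.9% over all genes. After miR-93 1 was lower and 1 higher, at a median of -0.05, beside 15.6% and 15.1%. Scaling to the reads on listed genes made the counts after miR-93 3 higher and 1 lower, beside 2836 and 1089 of 11280 genes. The gene lower with both of these mimics was Mfn2, which fuses mitochondria, at -1.04 (-1.18 to -0.90) and -0.72 (-0.85 to -0.58). Gpd1 was higher after miR-93 at 0.64. Ckmt2, the mitochondrial creatine kinase, named after its values were seen, left the list after miR-25 because it was at 0.85 RPKM there and at 3.52 in the control. In the direct comparison of miR-25 with miR-106b 16 of 22 were lower and 1 was higher, beside 23.0% and 22.1% over all genes.

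Transcripts of the mitochondrial DNA itself, which Tfam serves, were also lower after miR-25. All 13 were lower after miR-25, beside 22.6% of all genes tested, with log2 ratios from -1.18 to -0.46 and a median of -0.78. After miR-106b 5 were lower and after miR-93 3, beside 12.7% and 15.6% of all genes tested. The medians of the 13 were -0.11 and -0.24 there, and 0 of the 13 were higher. Mt-nd3 was lowest after miR-25 at -1.18 (-1.27 to -1.09). Mt-nd6 was lower with every mimic, at -0.66, -1.01 and -1.03, and Mt-nd5 at -0.55, -0.81 and -0.87. Scaled to the reads on listed genes, 2 of the 13 mitochondrial transcripts were lower after miR-106b and 2 after miR-93. Of all genes 1026 of 11296 and 1089 of 11280 were lower on that scale. After miR-25 10 of the 13 and 15 of the 22 ERR and PGC-1 targets were lower on it, beside 1782 of 11198 genes.

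Markers of heart muscle were also lower after miR-25. All 9 were lower there, at log2 ratios from -4.47 to -0.42, beside 22.6% of all genes tested. With scaling to the reads on listed genes 6 of 9 were lower, beside 1782 of 11198 genes. After miR-93 4 of the 9 markers were lower, beside 15.6% of all genes tested. With that scaling 2 were lower, beside 1089 of 11280 genes. The summed level of the 9 markers was 19920 RPKM in the control, 17970 after miR-106b, 13356 after miR-93 and 11883 after miR-25. Smooth muscle markers summed to 1392, 1152, 950 and 2917 RPKM, and Des alone made up 640.9 RPKM of the control sum. After miR-25 5 of 6 smooth muscle markers were higher, beside 19.3% of all genes tested. Fibroblast markers summed to 852, 664, 767 and 350.0 RPKM, and 7 of 10 were lower after miR-25. None of these 25 markers was listed at 0 in any library. The part of these markers in the values of the regulators and their targets was not tested.

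For the upkeep of mitochondrial DNA nuclear genes provide polymerases, transcription factors and nucleotides. After miR-106b 3 of 18 genes were lower and 0 higher, after miR-93 2 were lower and 1 higher, and after miR-25 4 were lower and 2 higher, at medians of -0.10, -0.13 and -0.18. Scaled to the reads on listed genes, 3 were higher and 1 lower after miR-25, beside 3284 and 1782 of 11198 genes. After miR-106b 1 was higher and 2 lower on that scale, beside 1882 and 1026 of 11296 genes. As deposited, 12.7% of all genes tested were lower and 11.9% higher after miR-106b, 15.6% and 15.1% after miR-93, and 22.6% and 19.3% after miR-25. Polrmt, the RNA polymerase that works with Tfam, was at -0.48 (-0.78 to -0.17) after miR-106b and -0.76 (-1.10 to -0.44) after miR-25. Tfb1m was at -0.53 (-0.81 to -0.25) after miR-25. Tfb2m was at -0.54 (-0.69 to -0.40) after miR-93 and, within 1.3-fold, at -0.19 (-0.32 to -0.05) after miR-25. Dguok, a kinase for mitochondrial nucleotides, was lower after miR-106b at -1.12 (-1.43 to -0.82) and after miR-93 at -1.01 (-1.32 to -0.70). Rrm2b, a subunit of ribonucleotide reductase, was higher at 1.09 (0.82 to 1.37) after miR-25, followed by Top1mt at 0.80. Mgme1 was higher after miR-93 at 0.42.

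**Figure D4:**
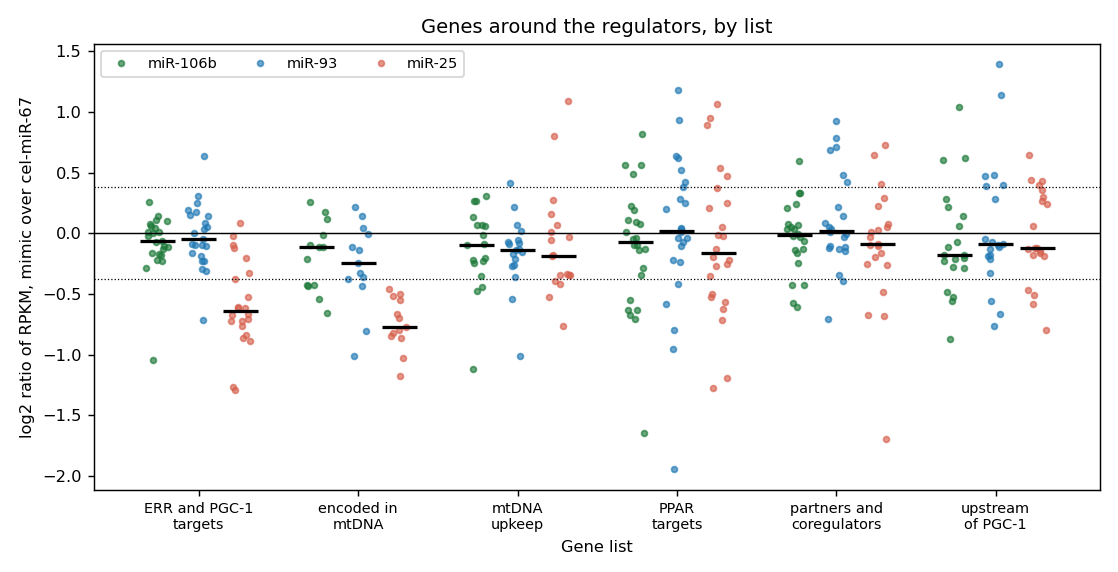
Log2 ratio of RPKM, mimic over cel-miR-67, for each gene above 1.0 RPKM in both libraries, by list; points are genes, black bars are list medians and dotted lines mark 1.3-fold. After miR-25 the medians of the ERR and PGC-1 targets and of the mitochondrial transcripts lie at -0.64 and -0.78, those of the other lists between -0.18 and -0.09.

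Genes known as PPAR targets went in both directions, as did all genes tested. After miR-106b 4 of 24 were higher and 6 lower, after miR-93 7 and 5, and after miR-25 5 and 7, at medians of -0.07, 0.02 and -0.16. With scaling to the reads on listed genes the counts became 9 and 4 after miR-93 and 7 and 6 after miR-25. On that scale 1882 of 11296 genes were higher and 1026 lower after miR-106b. After miR-93 these were 2836 and 1089 of 11280, and after miR-25 3284 and 1782 of 11198. As deposited, 11.9% of all genes tested were higher and 12.7% lower after miR-106b, 15.1% and 15.6% after miR-93, and 19.3% and 22.6% after miR-25. The counts are not read as particular to PPAR targets. Vldlr, a receptor for lipoproteins, was lower with each mimic, at -1.64 (-1.73 to -1.56), -1.95 (-2.04 to -1.85) and -1.19 (-1.27 to -1.11). It went from 51.3 RPKM in the control to 16.4, 13.3 and 22.5. Lpl, which frees fatty acids from circulating fat, was also lower with each mimic, at -0.68, -0.42 and -1.27 (-1.36 to -1.19) in the same order. So were the dehydrogenases of long chains Acadvl, at -0.71, -0.58 and -0.56, and Acadl, at -0.55, -0.96 and -0.53. Higher with each mimic was Slc27a1, a fatty acid transporter, at 0.82 (0.47 to 1.18), 1.18 (0.84 to 1.53) and 1.07 (0.73 to 1.42). Acot2, a thioesterase of mitochondria, was also higher with each mimic, at 0.56, 0.62 and 0.95. Cpt1a is the liver form of the enzyme that admits fatty acids to mitochondria. It was at 0.93 (0.79 to 1.07) after miR-93, and within 1.3-fold at 0.22 after miR-106b and 0.05 after miR-25.

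The partners and coregulators of the receptors included Perm1, a muscle protein that acts with PGC-1 and the ERRs. Perm1 was at 4.55 RPKM in the control, 5.73 after miR-106b, 8.65 after miR-93 and 1.41 after miR-25. The log2 ratio was 0.93 (0.76 to 1.10) after miR-93 and -1.69 (-1.97 to -1.42) after miR-25. In all, 1 of 22 partners was higher and 4 lower after miR-106b, 6 and 2 after miR-93, and 3 and 4 of 21 after miR-25, and their medians were -0.01, 0.02 and -0.09. With reads on listed genes as the scale, 3 were higher and 2 lower after miR-106b, 6 and 1 after miR-93, and 4 and 3 after miR-25. The shares over all genes are those given with the PPAR targets, and the counts are not read as particular to the partners. The coactivator Ncoa2 was at 0.79 after miR-93, and Ncoa3 at -0.58 after miR-106b and -0.68 after miR-25. Nr2f6, an orphan receptor, was higher with each mimic, at 0.60, 0.71 and 0.73. Yy1 was at 0.42 after miR-93 and 0.65 after miR-25, and Nfe2l2 was at -0.61 after miR-106b and -0.71 after miR-93. Pprc1 was at -0.39 after miR-93 and, as given above, at -0.68 after miR-25.

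Matches to known binding motifs were looked up in the 250 bases before each start site in RefSeq (GRCr8), in which 9 of the 10 regulators have 1 or more entries. The motifs, searched on both strands, were TCAAGGTCA for ERRs, CCGGAAGT for GABP, TGACGTCA for CREB and ATF2, and the NRF1 consensus. Of all 33469 promoters of this length they were found in 0.388%, 3.1%, 1.59% and 1.06%. The motifs were chosen after the promoters were seen, so these shares do not test the matches below. A shorter NRF1 motif, searched first, and a PPAR motif are left out. Tfam and Ppargc1a had 1 match each, on the strand of the gene, and their promoters are shown with the match in capitals, beside that of Esrrb, the gene with the largest ratio, in which none was found.
Tfam, chr20:17355123-17355372, plus strand: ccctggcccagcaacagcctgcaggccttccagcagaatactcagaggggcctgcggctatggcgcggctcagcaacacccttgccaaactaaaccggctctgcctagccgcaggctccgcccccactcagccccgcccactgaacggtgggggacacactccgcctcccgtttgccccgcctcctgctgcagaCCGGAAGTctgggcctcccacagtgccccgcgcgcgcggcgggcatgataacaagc
Ppargc1a, chr14:63634058-63634307, plus strand: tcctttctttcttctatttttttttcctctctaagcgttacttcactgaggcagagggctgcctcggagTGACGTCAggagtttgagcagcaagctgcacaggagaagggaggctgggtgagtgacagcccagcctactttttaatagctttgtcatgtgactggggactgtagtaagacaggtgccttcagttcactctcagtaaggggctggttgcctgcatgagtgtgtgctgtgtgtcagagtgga
Esrrb, chr6:111738412-111738661, plus strand: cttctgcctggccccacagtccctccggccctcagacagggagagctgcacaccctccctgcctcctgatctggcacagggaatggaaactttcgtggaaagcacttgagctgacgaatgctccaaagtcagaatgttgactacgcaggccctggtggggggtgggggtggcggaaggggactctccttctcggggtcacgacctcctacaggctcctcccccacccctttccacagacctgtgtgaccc
The Tfam match is to the GABP motif, 56 to 49 bases before the start. Gabpa, the subunit of GABP that binds DNA, was at 11.5 RPKM in the control and 15.1 after miR-25, a log2 ratio of 0.40 (0.30 to 0.51). The Ppargc1a match is to the CREB and ATF2 motif, 181 to 174 bases before the start. Creb1 was at 12.1 RPKM in the control and between 10.6 and 11.7 in the mimic libraries. Atf2 was at 10.6 RPKM in the control, 12.3 after miR-106b, 12.9 after miR-93 and 14.3 after miR-25. These 3 factors were named after the matches were seen. The matches describe letters in the windows and are not measurements of binding.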

How the data were processed

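RNA of neonatal rat cardiomyocytes transfected with 4 mimics was measured, with 1 library for each, and groups were taken from the sample titles. As the methods state, the authors trimmed reads with Cutadapt, mapped them to Rnor 6.0 with STAR (2.7 in the submitters' processing notes), rounded gene counts and deposited them as RPKM computed with the rpkm function of edgeR. The counting program is not given in the sources used here. The 4 per-sample tables were identical to the table of the series.

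Ratios of deposited RPKM were taken without a pseudocount for genes above 1.0 RPKM in both libraries, and genes past 1.3-fold were counted. The authors' results text gives a cutoff of 1.0 RPKM, and their methods give 2.0 RPKM in both libraries. Reads were recovered as the smallest gene length, from 50 to 120000 bases, that gave whole reads within 1e-06 in every library; a factor common to all 4 libraries and to the length cannot be seen. This was tested on simulated data. Levels have exact Poisson intervals. A ratio's interval is the Clopper-Pearson one for the mimic's part of both libraries' reads on the gene. Reads on listed genes numbered 15175309 to 18797375 in a library, and a level near that of Pparg rests on 16 to 48 reads.

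The 10 members, the gene lists and the cutoffs were chosen with earlier results of these data known, and the motifs after the promoters were seen. A shorter NRF1 motif, searched first, matched in Ppara and a PPAR motif in no member, and both are left out of the report. Named in the text, beside the members, are for each list and mimic up to 2 genes with the largest rise and 2 with the largest fall past 1.3-fold, and the most abundant marker of cell type lists in the control. Gabpa, Creb1, Atf2, Ckmt2, Kdr and Rxrg fall outside this rule. Symbols listed more than once (176) were left out of lists, and 7 list genes were matched by an older name. Alternatives were RPKM cutoffs of 2.0 in both libraries, of 1.0 in either and none, a fold of 1.5, pseudocounts of 0.1 and 1 RPKM, centring on the median gene and scaling to reads on listed genes. Tables were handled in pandas 2.3.3 on Python 3.11.15, with scipy 1.17.1 for intervals, numpy 2.4.6 and, for plots, matplotlib 3.10.9.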

Additional observations from a re-analysis of the deposited data

How the results depend on the processing

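Of 40 counts of called members under the alternatives, 32 stayed within 1.5 times the count as reported and 8 did not. With a fold cutoff of 1.5, 1 member was called after miR-106b (Esrrg) instead of 3, 0 instead of 1 between miR-93 and miR-106b, and 1 instead of 3 between miR-25 and miR-106b. With RPKM above 2.0 in both libraries, 3 instead of 5 were called after miR-25, as Esrrb and Ppara no longer passed, and 0 between miR-93 and miR-106b. A pseudocount of 1 RPKM also left 0 in that comparison. Between miR-25 and miR-106b, RPKM above 1.0 in either library gave 5 and no cutoff gave 6, since Esrrb, Ppard and then Pparg entered. Of 150 log2 ratios of single members, 139 stayed within their counting interval, 11 left it and 0 of the called ones changed sign. No paired analysis was possible because there is 1 library for each mimic, and for the same reason no library could be left out. The spread between cultures was not measured.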

Other observations

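Genes known to act upstream of PGC-1α, of which Creb1 and Atf2 are given with the promoters, went in both directions. Of 20 tested, 3 were higher and 4 lower after miR-106b, 6 and 3 after miR-93, and 4 and 4 after miR-25. With scaling to the reads on listed genes, 7 were higher and 3 lower after miR-93, and 8 and 2 after miR-25. The shares over all genes are those given with the PPAR targets, and the counts are not read as particular to these upstream genes. Mapk14, the kinase p38α, was at 5.44 RPKM in the control, 11.2 after miR-106b, 12.0 after miR-93 and 7.18 after miR-25, with log2 ratios of 1.04 (0.92 to 1.16), 1.14 (1.01 to 1.26) and 0.40 (0.26 to 0.54). Of the subunits of AMPK, the kinase that senses low energy, Prkaa2 was lower with each mimic, at -0.49 (-0.56 to -0.41), -0.66 (-0.74 to -0.59) and -0.59 (-0.66 to -0.51). Prkag2 was at 0.62 after miR-106b and 1.39 (1.26 to 1.52) after miR-93, against 0.06 (-0.09 to 0.21) after miR-25. Prkab1 was at 0.47 after miR-93 and -0.80 after miR-25. Stk11, the kinase LKB1 that activates AMPK, was at -0.87 after miR-106b, -0.77 (-0.89 to -0.64) after miR-93 and -0.19 (-0.30 to -0.08) after miR-25. Mtor was higher with each mimic, at 0.60, 0.39 and 0.65. Ppp3ca, a catalytic subunit of calcineurin, was at 0.44 after miR-25, and Sirt3 was at -0.56 after miR-106b and -0.51 after miR-25.

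Rxrg, a partner of the PPARs that was chosen after its values were seen, was at 0.42 RPKM in the control, 1.61 after miR-106b, 4.35 after miR-93 and 0.07 after miR-25, and so did not pass the level cutoff against the control. Its log2 ratio was 3.39 (2.85 to 3.97) after miR-93 and -2.59 (-4.14 to -1.30) after miR-25.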
